A study of Mus musculus with 8 samples.

Results

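The module described here is a set of 82 genes whose mRNA was lower, but still present, in c-Src-deficient ErbB2-driven mammary tumor cell lines. Its members were selected on the measured values themselves. A gene entered when it had at least 1 FPKM in all 8 libraries and when the duplicate mean of log2(FPKM + 1) in line m4447 and that in line m9327 were each at least 1.5 below the mean of lines m5567 and m8905. FPKM counts the sequenced fragments of a gene relative to its length and to the total of the library. Of the 39993 genes in the table, 9957 had at least 1 FPKM in all 8 libraries, and the 82 members are 0.824% of those. The difference between genotypes therefore chose the members, and it is given below as a description with no test.

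The data are RNA-Seq of 4 cell lines on the FVB/N background, each grown from a separate mammary tumor of an MMTV-NIC mouse and sequenced in biological duplicate at passages 10 to 15. In all 4 lines the MMTV promoter, which is active in mammary epithelium, drives 1 transcript that encodes oncogenic ErbB2 and Cre recombinase, so the control lines carry ErbB2 and Cre as well. Lines m5567 and m8905 have wild-type Src alleles (MMTV-NIC/c-Src WT/WT, written NIC/c-Src+/+), and lines m4447 and m9327 have conditional alleles that Cre can delete (MMTV-NIC/c-Src LoxP/LoxP, written NIC/c-SrcL/L). Each line stands for 1 tumor, so the lines are nested in the genotypes, and the spread between lines of a genotype rests on 2 lines.

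ErbB2 is a receptor tyrosine kinase of the EGF receptor family that is amplified in a class of human breast cancers. c-Src is a non-receptor tyrosine kinase at the inner side of the plasma membrane that relays signals from such receptors and from integrins to growth, adhesion and motility pathways. A steady-state mRNA level, which RNA-Seq measures, is the balance of transcription and decay, and a lowered level that stays above the detection limit differs from a silenced gene in that its remaining transcripts can be counted and compared between lines.

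The table lists genes by FVB/NJ strain identifiers, which the files do not pair with gene names. None of the 39993 identifiers (0) was found in the reference tables used here. For this reason 2 members are named by identifier, and the others are described by their values and their place in an order. The level of Src itself, markers of mammary epithelium and of other cell types, and the known functions of the members were not analysed here.

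The reads behind the members were numerous in most cases. The totals that divide the FPKM values, solved from the values themselves, were 15231180 and 15808372 reads in the duplicates of m5567, 17773742 and 14069716 in m8905, 16533393 and 17253236 in m4447, and 17090276 and 14956966 in m9327. The median member had between 1282 and 1710 reads in a control library and between 188 and 303 reads in a deficient library. The lowest value of any member in any library was 11 reads, 2 members had fewer than 20 reads in a library, and 29 had fewer than 100. The duplicates of each line differed by more than counting noise, so they were kept as separate libraries. The median absolute difference between duplicates over the members was 0.10 in m5567, 0.11 in m8905, 0.20 in m4447 and 0.13 in m9327 on the log2(FPKM + 1) scale.

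In the control lines the members were abundant genes. The median level of the members was 56.5 and 55.0 FPKM in the duplicates of m5567 and 62.2 and 56.6 FPKM in those of m8905. In the deficient lines the same genes had a median of 7.92 and 9.54 FPKM in m4447 and of 14.2 and 13.3 FPKM in m9327. All 4 deficient libraries thus lay below all 4 control libraries in this median, with m4447 the lowest. In bulk RNA, fewer cells of one type and less RNA per cell cannot be told apart.

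**Figure D1:**
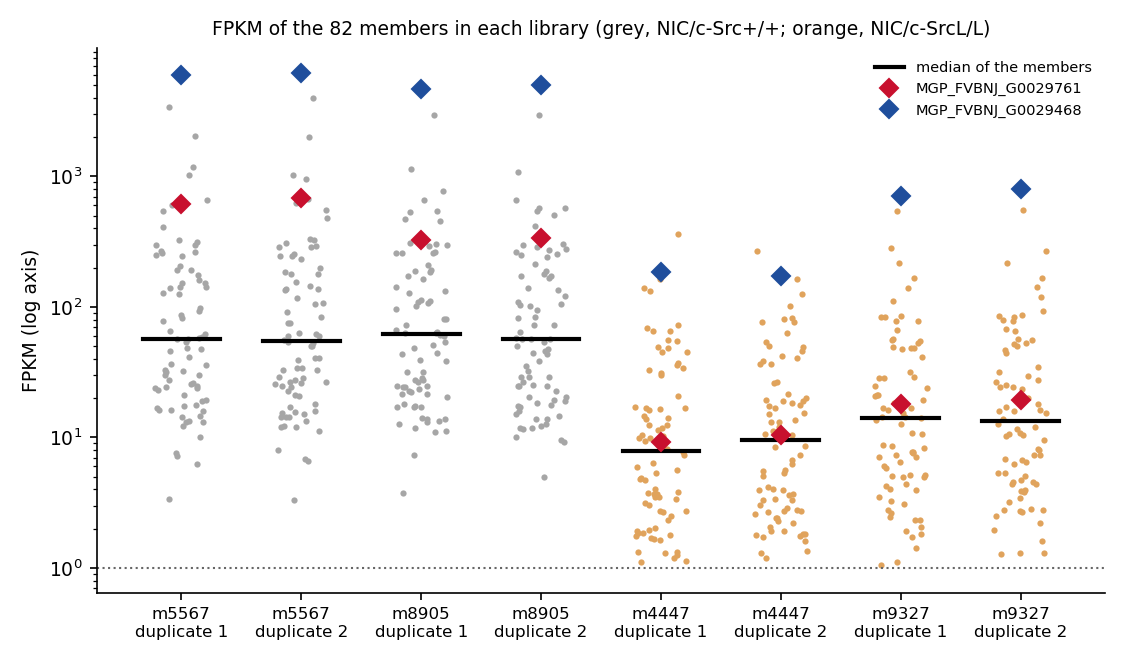
FPKM of each of the 82 members (points, log axis) in the 8 libraries, with the median of the members as a black bar, the 2 members named by identifier as diamonds and the floor of 1 FPKM as a dotted line. The medians lie between 55.0 and 62.2 FPKM in the 4 NIC/c-Src+/+ libraries (grey) and range from 7.92 to 14.2 FPKM in the 4 libraries of NIC/c-SrcL/L lines (orange).

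The control level of the median member lay at percentile 78.7 of the 9957 genes with at least 1 FPKM in all libraries, and 26 of the 82 members were in the top 10% of those genes. A gene near the floor in the control lines cannot be lowered by this amount and still pass it, so the rule itself favors abundant genes, and the lowest control mean of any member was 8.60 FPKM. In the deficient lines the median member lay at percentile 41.2, and 6 members were still in the top 10%. A mean of at least 100 FPKM was reached by 31 members in the control lines and by 8 members in the deficient lines. The members together held 2.50% and 2.57% of the summed FPKM of the m5567 libraries and 2.09% and 2.04% of that of the m8905 libraries. Their share was 0.222% and 0.229% in m4447 and 0.399% and 0.417% in m9327. The share of the module was lower in both deficient lines, most so in m4447.

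Gene length was not used by the rule. The members had a median length of 1509.5 bases (quartiles 996 and 2281), against 1740 bases (quartiles 1158 and 2628) for the 9957 genes, which are lengths solved from the FPKM values. The shortest member was 490 bases long and the longest 6963 bases.

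The size of the drop varied widely among the members. In m4447 the median difference from the control mean was -2.38 on the log2(FPKM + 1) scale (first quartile -3.09), and the median member kept 14.9% of its control FPKM. In m9327 the median difference was -1.88 (first quartile -2.28), and the median member kept 24.1%. The remaining level ran from 0.496% to 33.9% in m4447 and from 1.32% to 34.4% in m9327. These percents use the arithmetic mean FPKM of the control lines, whereas the rule used the mean of log2(FPKM + 1). The 1.32% belonged to a member with uneven control lines, at 3696 FPKM in m5567 and 539 FPKM in m8905. Fewer than 10% remained for 23 members in m4447, for 8 in m9327 and for 3 in both lines. All 82 members had their 4 deficient libraries below their 4 control libraries, as did 24.0% of the 12673 genes whose mean reached 0.5 FPKM. Since the rule used this contrast, nothing is read from the count. The lowest control library of a member lay above its highest deficient library by a median of 3.09-fold, and by 1.48-fold at the least. The drop in the rule shaped these gaps too, so nothing is read from them either.

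MGP_FVBNJ_G0029761 had the largest drop when the smaller of its 2 drops was used to rank the members. It was measured at 617 and 679 FPKM in m5567, 326 and 336 FPKM in m8905, 9.19 and 10.5 FPKM in m4447, and 18.0 and 19.3 FPKM in m9327. The mean was 489 ± 224 FPKM (SD, n = 2 lines) in the control lines and 14.2 ± 6.24 FPKM (SD, n = 2 lines) in the deficient lines. The level was 49.8-fold lower than the control mean in m4447 and 26.2-fold lower in m9327, and the lowest library still held 144 reads of this gene. MGP_FVBNJ_G0029761 also differed within each genotype. It was higher in m9327 than in m4447 by 0.86 ± 0.10 (SE) on the log2(FPKM + 1) scale (limma, Benjamini-Hochberg adjusted p = 0.000193), and higher in m5567 than in m8905 by 0.97 ± 0.10 (limma, adjusted p = 0.000225).

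MGP_FVBNJ_G0029468 was the most abundant member in the control lines and ranked 14 among all genes by control mean. Its values were 5925 and 6236 FPKM in m5567, 4703 and 5028 FPKM in m8905, 183 and 173 FPKM in m4447, and 703 and 798 FPKM in m9327. The groups did not overlap, as in all 82 members, and since the rule used this contrast, nothing is read from that. Both deficient lines still expressed the gene above 16.3 FPKM, the median deficient level of the 9957 genes. Its mean was 5473 ± 859 FPKM (SD, n = 2 lines) in the control lines and 464 ± 405 FPKM (SD, n = 2 lines) in the deficient lines. MGP_FVBNJ_G0029468 was 30.7-fold lower than the control mean in m4447 and 7.29-fold lower in m9327. The deficient lines differed by 2.07 ± 0.10 (SE) on the log2(FPKM + 1) scale, m9327 being higher (limma, adjusted p = 1.16e-06). Between the control lines the difference was 0.32 ± 0.10 with an adjusted p of 0.0517 by limma. Without this gene the members summed to 16619 and 17182 FPKM in m5567, 14129 and 13645 FPKM in m8905, 1960 and 1926 FPKM in m4447, and 3004 and 3109 FPKM in m9327, which leaves the order of the lines as it was. The order of the control lines also depends on a further member, which these sums still hold. That member had a mean of 3696 FPKM in m5567 and of 539 FPKM in m8905.

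The member at the middle of the order by the smaller drop had 23.2 and 20.6 FPKM in m5567, 31.8 and 28.8 FPKM in m8905, 1.76 and 3.40 FPKM in m4447, and 6.49 and 6.25 FPKM in m9327. Both deficient lines were low, and the duplicates of m4447 spread more than those of the other lines. Near the threshold, the member with the smallest passing drop lay just past the threshold in m9327 and had a drop of 2.32 in m4447, at 58.9 FPKM in the control lines, 11.0 FPKM in m4447 and 20.1 FPKM in m9327. The nearest gene outside had drops of 1.48 in m4447 and 1.72 in m9327, at 11.3, 2.59 and 2.11 FPKM. Within 0.1 of the threshold there were 13 members inside and 17 genes outside. At the floor, the member with the lowest value in any library reached 1.05 FPKM there, and the nearest gene outside reached 0.992 FPKM.

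The 2 deficient lines were then compared with each other, which asks whether lines with the same targeted alleles held the members at the same level. It was tested for all 12673 genes with limma, and the p-values measure only the spread between duplicates, so they compare these lines and not genotypes. The labels call the duplicates biological but do not say whether they were separate cultures or passages, so the spread behind each p-value and SE may be partly technical. All 82 members passed the filter on low values, as the floor ensures. Of these, 44 members were higher in m9327 than in m4447 (limma, adjusted p under 0.05), against 29.0% of all genes tested. In the opposite direction 6 members were higher in m4447, against 18.2% of all genes tested, and this count was 3 without the first duplicate of m9327. The members' median difference was 0.46, and 61 of the 82 lay above 0, beside a median of 0.09 over all genes tested. A difference of at least 1 accompanied the call for 20 members higher in m9327 (6.57% of all genes tested) and for 2 members higher in m4447 (4.46%). With quantile normalization, 24.8% of all genes tested were called higher in m9327 and 24.5% higher in m4447. With median ratio rescaling these shares of all genes tested were 25.1% and 23.6%. The member counts were 41 and 9 under each setting.

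**Figure D2:**
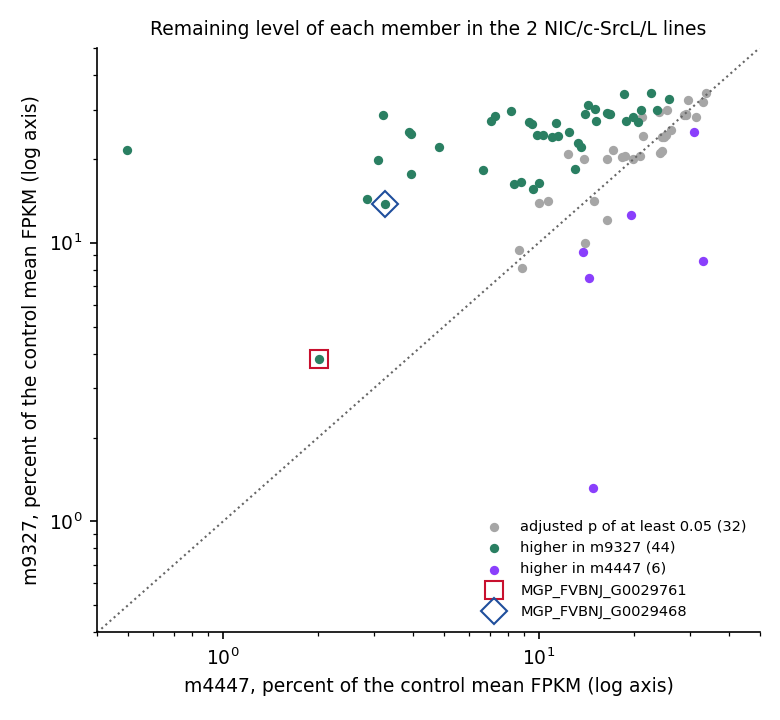
FPKM of each member in m4447 (horizontal) and m9327 (vertical) as a percent of the mean of the control lines, both on log axes, with equal levels on the dotted line. The 44 members higher in m9327 (green) lie above the line, the 6 members higher in m4447 (purple) lie below it, and 32 members (grey) did not pass the test.

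The rule is not neutral with regard to this difference, because it holds both lines below a common threshold and above a common floor. With the same floor and threshold, 345 genes were lowered in m4447 and 135 in m9327, so the 82 members are 23.8% of the first list and 60.7% of the second. The line with more genes far from the control lines was also the one in which the members lay lower. Genes on the other side of the control level had the same order. Of 98 genes raised by at least 1.5 in both deficient lines above the same floor, m4447 lay farther from the controls in 72, and 57 were called higher in m4447 and 13 higher in m9327. Of the 128 genes that met the drop in both lines but were under 1 FPKM in some library, m4447 lay farther in 103, against 61 of the 82 members. The tilt toward m4447 was not tested as a property of the module, and nothing particular to the members is read from it.

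The members were also divided by their mean FPKM over all 8 libraries. The 28 most abundant had a median m9327 to m4447 ratio of 1.68 in FPKM, and 20 of them (71.4%) were called higher in m9327, against 32.1% of the genes of the same range of mean FPKM with at least 1 FPKM in all libraries. For the 27 in the middle the median ratio was 1.42, and 14 (51.9%) were called, against 30.5% of such genes. For the 27 least abundant the median ratio was 1.31, and 10 (37.0%) were called, against 26.1%. The 6 members higher in m4447 comprised 2 of the most abundant and 4 of the middle group. The floor and the drop bound the level of each member in both deficient lines, and the part of the rule in this order was not tested, nor were the groups tested against each other. The genes of the same range were taken by level alone, without the drop, so no excess among the members is read from these shares. Of the 128 lowered genes under the floor, 47.7% were called higher in m9327 and 7.03% higher in m4447.

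Single members departed far from a shared drop. The member with the largest difference between the deficient lines had 258 and 247 FPKM in m5567, 259 and 264 FPKM in m8905, 1.20 and 1.36 FPKM in m4447, and 54.4 and 55.9 FPKM in m9327. This gene was even across the control lines and almost absent from m4447, where 11 and 13 reads were counted, yet kept 21.4% of its control level in m9327. The difference between the deficient lines was 4.63 ± 0.09 (SE) on the log2(FPKM + 1) scale (limma, adjusted p = 1.79e-08). The fit gave values from few reads the same weight as others, so counting noise at 11 and 13 reads may exceed this SE.

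The opposite extreme was a member with 3392 and 4000 FPKM in m5567, 537 and 541 FPKM in m8905, 362 and 266 FPKM in m4447, and 31.6 and 24.3 FPKM in m9327. Here m9327 was the lowest line, and the m4447 libraries came nearer to the m8905 control libraries than m8905 did to m5567. The gene was lower in m9327 than in m4447 by 11.2-fold in FPKM (log2(FPKM + 1) difference -3.44 ± 0.17, limma adjusted p = 1.25e-06). A further member had 541 and 551 FPKM in m5567, 471 and 417 FPKM in m8905, 164 and 163 FPKM in m4447, and 41.4 and 44.0 FPKM in m9327. It was 3.84-fold higher in m4447 than in m9327. Between the control lines its difference was 0.30 ± 0.10, which did not pass the threshold (limma, adjusted p = 0.0543).

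Other members were close in the 2 deficient lines. The member with the smallest difference between them had 246 and 255 FPKM in m5567, 258 and 256 FPKM in m8905, 65.9 and 80.3 FPKM in m4447, and 66.5 and 79.1 FPKM in m9327. The second in the order by drop was 11.3-fold lower than the control mean in m4447 and 12.3-fold lower in m9327, with 164 ± 24.2 FPKM (SD, n = 2 lines) in the control lines. Of the 32 members that were not called between the deficient lines, 31 had a 95% interval of the difference within 1 on either side of 0, and the interval of the remaining member reached 1.02. The SE of a member was 0.21 at the most, so a difference too small to be called mostly has such an interval. The count is therefore no test of equal levels.

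**Figure D3:**
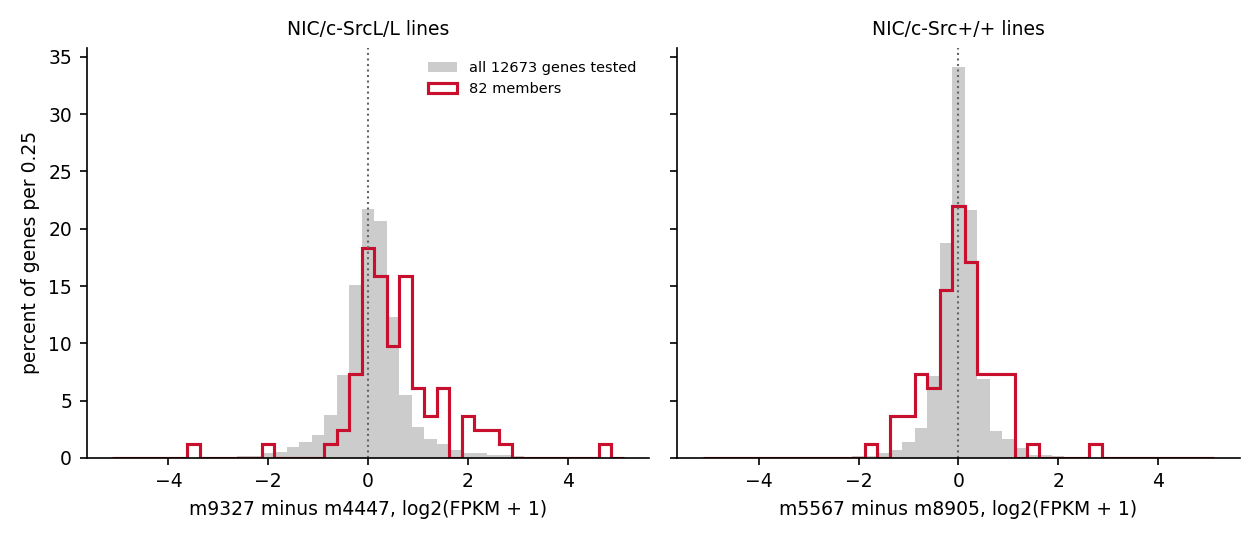
Distribution of the log2(FPKM + 1) difference m9327 minus m4447 (left) and m5567 minus m8905 (right), as percent of genes per step of 0.25, for the 82 members (red outline) and all 12673 genes tested (grey). The members' median lies at 0.46 on the left, beside 0.09 for all genes, and at 0.02 on the right, beside 0.01 for all genes.

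The control lines were compared with each other in the same way. This contrast is not independent of the rule either, because a gene high in 1 control line can pass through the mean of both, and 53 of the 82 members met the threshold when the lower control line replaced the mean. The shares and spreads over all genes tested are therefore given beside those of the members as a description, and no excess among the members is read from them. Of the 82 members, 20 were higher in m5567 (limma, adjusted p under 0.05), against 12.0% of all genes tested, and 17 were higher in m8905, against 11.9%. Both shares over all genes tested were lower whenever a control library was left out, so they are not fixed references. With a difference of at least 1 the counts were 3 members higher in m5567 (2.50% of all genes tested) and 6 members higher in m8905 (2.32%). The members' median difference was 0.02, with 44 members above 0 and 38 below, while the summed FPKM of the members was higher in the m5567 libraries (22544 and 23418) than in the m8905 libraries (18832 and 18673). A large part of this gap came from a single member, at 3392 and 4000 FPKM in m5567 and 537 and 541 FPKM in m8905. The median absolute difference was 0.36 over the members and 0.20 over all genes tested. For 45 members the control lines did not pass the test, and all 45 had a 95% interval within 1 on either side of 0. With SEs of 0.21 at the most, this too is no test of equal levels. Both pairs of lines differed for 24 members (29.3%, against 14.3% of all genes tested), and neither pair passed the test for 19 (23.2%, against 43.2%). Genes chosen against the same control mean but outside the module are set beside them. Of the 98 raised genes, 19.4% were higher in m5567 and 27.6% in m8905, and of the 128 lowered genes under the floor, 28.1% and 35.2%, beside 24.4% and 20.7% of the members.

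**Figure D4:**
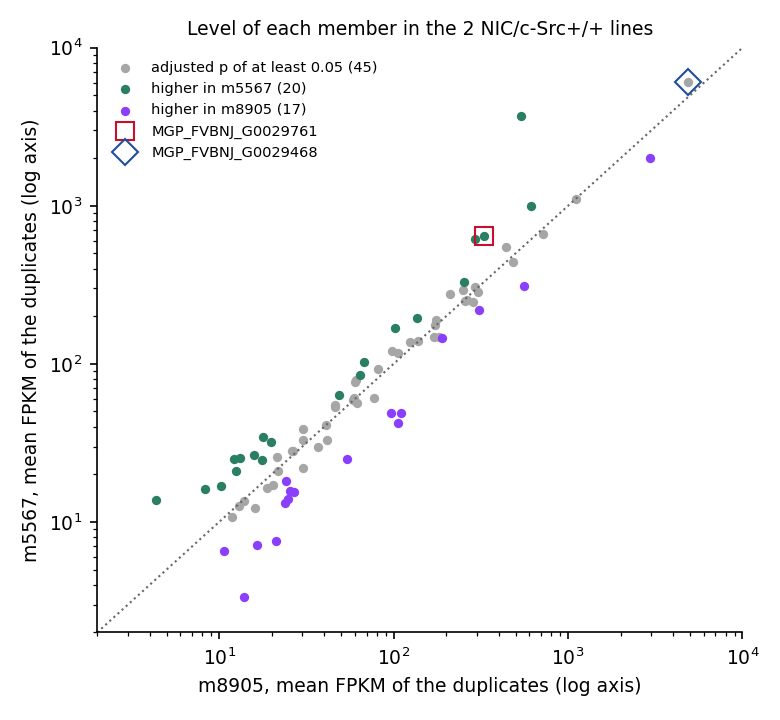
Mean FPKM of the duplicates of each member in m8905 (horizontal) and m5567 (vertical), both on log axes, with equal levels on the dotted line. Green points are the 20 members higher in m5567, purple points the 17 members higher in m8905, and grey points the 45 members that did not pass the test.

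The widest gap between the control lines belonged to the member lowest in m9327 described above, which was 6.86-fold higher in m5567 than in m8905 (log2(FPKM + 1) difference 2.77 ± 0.17, limma adjusted p = 1.10e-05). In the other direction, a member had 3.40 and 3.31 FPKM in m5567, 13.8 and 14.0 FPKM in m8905, 1.27 and 1.31 FPKM in m4447, and 1.11 and 1.31 FPKM in m9327. It was 4.14-fold higher in m8905 than in m5567 (limma, adjusted p = 3.38e-06), while the deficient lines held it at nearly the same level, just above the floor. For such a member the distance from m5567 alone was smaller than the drop by which it was chosen, because the rule took the mean of the control lines. When every deficient library had to lie 1.5 below the lowest control library, 45 of the 82 members met the threshold.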

How the data were processed

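RNA-Seq libraries of 4 mammary tumor cell lines, 2 NIC/c-Src+/+ and 2 NIC/c-SrcL/L, each in biological duplicate, were assigned to genotype, line and duplicate from the sample labels. The authors prepared poly-A libraries, aligned the read pairs to FVB/N sequence (TopHat2 2.0.12 and Bowtie2 2.2.3, per the submitters' processing notes), counted reads per gene with HTSeq 0.6.1, and deposited FPKM values computed from gene length and counts. The annotation release and strandedness are not given in the sources used here. How reads of overlapping genes and of near-identical copies were assigned is therefore not known, and levels of members may be affected. The authors tested counts with DESeq. The deposited unit is FPKM, so limma was used here.

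Values were used as log2(FPKM + 1), a scale that understates fold changes of low genes. Genes whose mean reached 0.5 FPKM (12673) were fitted with 1 mean per line over the 8 libraries (limma 3.58.1, R 4.3.3, lmFit and eBayes without trend), and m9327 with m4447, and m5567 with m8905, were compared with Benjamini-Hochberg adjustment over all genes and a threshold of 0.05. Reads, gene lengths and library totals were solved from the values (Python 3.11.15, numpy 2.4.6, pandas 2.3.3), and all 22673 genes with a value above 0 came out as whole reads within 0.01. The shortest length that made all values of a gene whole was taken. For a gene above 0 in few libraries some length can fit without being right, so the count is no check there. Every member was above 0 in all 8 libraries. Solving and fit were tested on simulated data.

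The members, lists and tests were chosen with earlier results of these data known. The rule for identifiers took the member with the largest lesser drop (the smaller of its drops in m4447 and m9327) and the member with the highest control mean. Gene lists and cell type markers planned for named genes were not analysed here, since no identifier matched (0 of 39993). Alternatives were another pseudocount, other drops and floors, stricter rules on libraries and lines, other filters, quantile normalization, median ratio rescaling, an intensity trend, a 2-fold minimum, only the lines compared, the duplicate number as a block, and leaving out each library. Voom on the solved reads was added after seeing the data.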

Additional observations from a re-analysis of the deposited data

Results flagged for a closer look

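The effect relative to the control lines differed between the 2 deficient lines, by limma's test of m9327 against m4447, for 44 members that were higher in m9327 and for 6 that were higher in m4447, against 29.0% and 18.2% of all genes tested. In genes outside the module m4447 also lay farther from the control lines more often, with 57 of the 98 raised genes called higher in m4447 and 13 higher in m9327, and with 61 of the 128 lowered genes under the floor called higher in m9327 and 9 higher in m4447. The same test separated the deficient lines for both members named by identifier, MGP_FVBNJ_G0029761 by 0.86 and MGP_FVBNJ_G0029468 by 2.07 on the log2(FPKM + 1) scale, m9327 being higher in each. Whether culture, passage within the stated range or the tumor of origin had a part in these differences was not tested. A search for a library far from the other 3 of its genotype, by the ratio of its gap to the range of the 4 libraries, covered 36 sets of values (the summed and the median FPKM of the members, and 16 single members taken from the ends and the middle of the orders by level, drop and difference between lines, in each genotype), and 0 exceeded Dixon's critical ratio. Each set holds 2 lines in duplicate, and where the lines differ the nearest value to a library is its own duplicate, which keeps this ratio low, so the count says little about single libraries.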

How the results depend on the processing

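The number of members depended on the limits of the rule. It was 281 with a drop of at least 1, 30 with a drop of at least 2, 210 with no floor, 45 when every deficient library had to lie 1.5 below the lowest control library, and 53 when the lower control line replaced the mean. Under the other 5 settings it lay between 64 and 110, with 101 at a pseudocount of 0.1, 77 with quantile normalization (75 shared with the 82) and 75 with median ratio rescaling (73 shared). Leaving out each library in turn gave 80 to 93, of which at least 79 were among the 82.

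A 2-fold minimum, which by construction removes smaller differences, left 20 members higher in m9327 than in m4447, 2 higher in m4447, 3 higher in m5567 than in m8905 and 6 higher in m8905. Under the other 9 settings, voom on the recovered reads included, the counts stayed within 1.5 times those reported. Leaving out each library in turn gave 39 to 47 higher in m9327, 3 to 8 higher in m4447, 14 to 23 higher in m5567 and 13 to 19 higher in m8905. The 3 members higher in m4447 came without the first duplicate of m9327; the cause was not tested. A lone library was assumed to vary like the others.

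The duplicate numbers did not pair the libraries, since the duplicate differences of 2 lines correlated between -0.181 and 0.0633 across genes. With the duplicate number as a replicate block the counts were 43, 5, 18 and 17.

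Both named members kept the direction of the m9327 to m4447 difference under all 18 settings, and MGP_FVBNJ_G0029761 missed only the 2-fold minimum. MGP_FVBNJ_G0029468 passed the threshold between the control lines under 8 of 18 settings. Members with few reads, 11 at the lowest, limit the precision of the smallest remaining levels.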
